A study of Mus musculus with 10 samples.

Results

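The nuclear-encoded subunits of the mitochondrial respiratory chain and of ATP synthase were examined in the aortae of young and old mice. Subunit genes were taken by their symbols (Nduf, Sdh, Uqcr, Cox4 to Cox8 and Atp5), after removal of 8 names that carry the pseudogene suffix -ps. The rule took 88 of 55453 gene symbols in the table, of which 84 are annotated as protein coding and 4 as processed pseudogenes (Ndufs6b, Cox6c2, Ndufb4c and Ndufa11b). By symbol, 40 genes belonged to complex I, 4 to complex II, 8 to complex III, 19 to complex IV and 17 to complex V. RNA was sequenced from whole aortae of male C57BL/6 mice, 5 young at the age of 14.5 weeks and 5 old at 92.5 weeks, with 1 library for each mouse. The mice had no treatment other than age, both ages were killed at the same time, and fat around the vessel was removed before RNA extraction. The study asked which genes change with arterial aging. Each library held between 19640401 and 22886153 counts. Smooth muscle markers were abundant in all libraries, with summed levels of 757100 to 972063 normalized counts over 8 genes (counts divided by a size factor for each library), as befits aortic wall.

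The respiratory chain passes electrons from NADH through complex I, or from succinate through complex II, to ubiquinone, then through complex III and cytochrome c to complex IV, where oxygen is reduced. Complexes I, III and IV pump protons across the inner mitochondrial membrane, and complex V (ATP synthase) uses the resulting gradient to make ATP. Most subunits are encoded in the nucleus and imported, whereas a few core subunits of complexes I, III, IV and V are encoded in mitochondrial DNA, so that both genomes supply each of these complexes. In the vessel wall, mitochondria serve the contractile smooth muscle cells and also the endothelium, fibroblasts and any remaining fat cells.

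No subunit gene passed the test between old and young aortae. Of the 81 members that passed the low-count filter, 0 were called at an adjusted p below 0.05 in either direction by the edgeR quasi-likelihood F test, whereas 1676 of 14614 tested genes (11.5%) were called, 947 (6.48%) higher and 729 (4.99%) lower in old aortae. DESeq2 and limma-voom also called 0 members, with 5 members each at an unadjusted p below 0.05. In edgeR, 5 members (6.17%) had such a p, against 3902 of all tested genes (26.7%). The count of members was 11 without old replicate 3, 9 with a correction for gene length and GC content, 8 in limma-voom with sample quality weights, 3 without old replicate 1, 2 or 4, 3 with upper-quartile scaling, and 2 with library size alone. Groups that did not overlap were seen in 0 members and in 1450 of all tested genes (9.92%). The differences were small as well as uncalled. In 64 members (79.0%) the estimated difference was under 0.1 on the log2 scale, as it was in 5849 of all tested genes. The 95% interval lay wholly within 0.32 of 0 on the log2 scale for 71 members (87.7%) and for 6105 of all tested genes (41.8%). This last count was chosen after the values were seen. In bulk tissue, fewer cells of a type and less RNA per cell cannot be told apart.

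**Figure D1:**
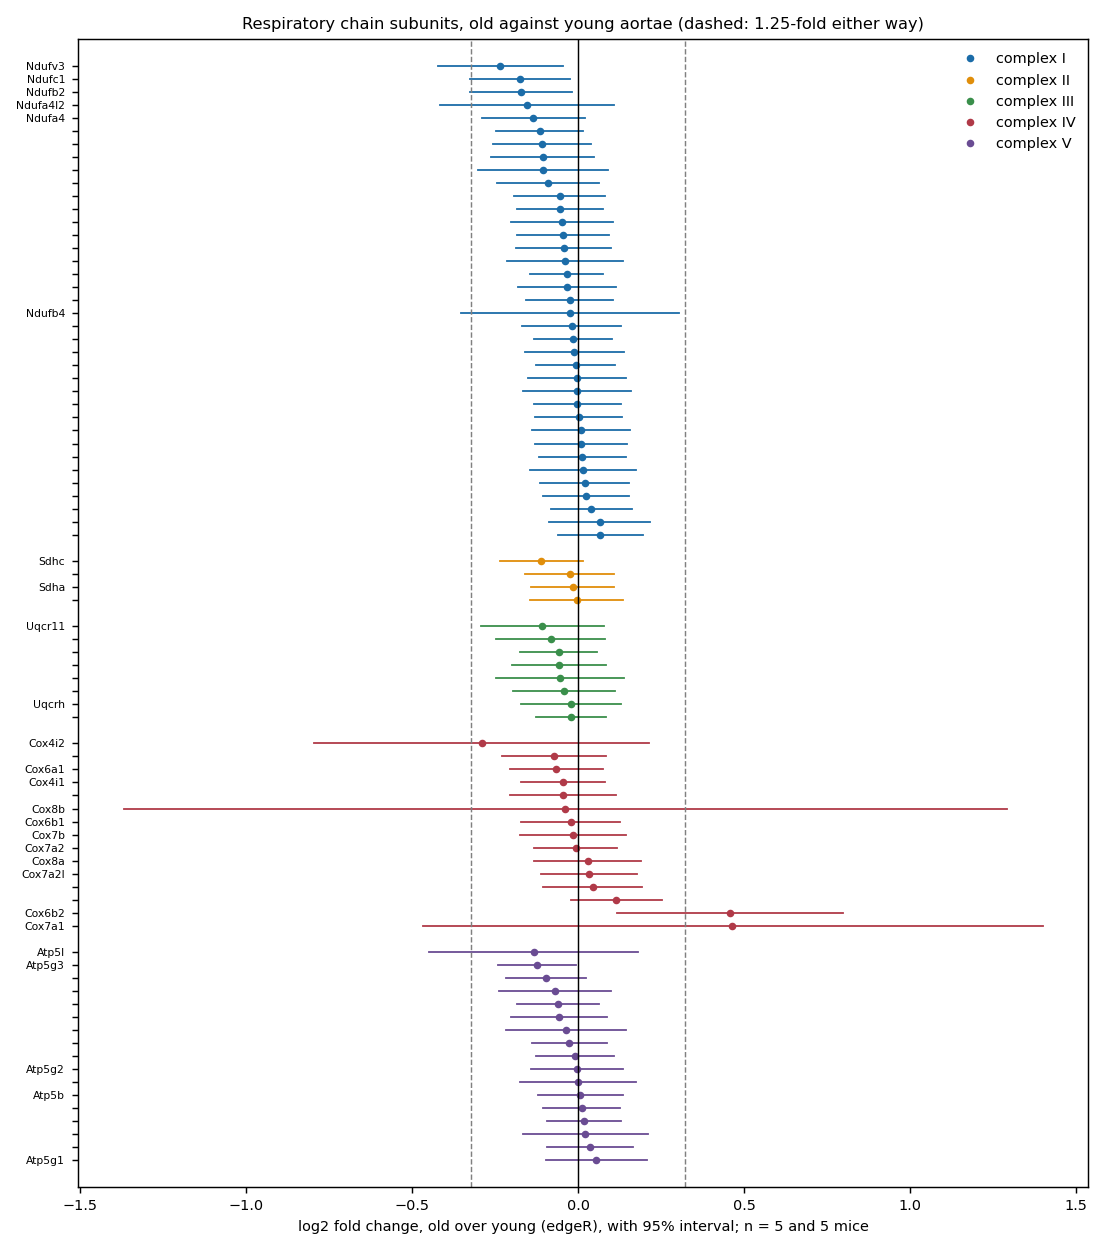
The log2 fold change of old over young aortae (x axis) is plotted for the 81 tested subunit genes, grouped by complex, as points with 95% intervals from edgeR (5 old and 5 young mice), with names for the most abundant gene per length and the smallest p of each complex, the isoforms and the genes with wide intervals. Most intervals sit between the dashed lines at 0.32 on either side of 0, 10 cross them, and the 4 widest are those of the tissue-restricted complex IV genes Cox8b, Cox7a1, Cox4i2 and Cox6b2.

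The median log2 difference over the 81 tested members was -0.02, with 23 estimates above and 58 below 0 (over all tested genes, 7418 above and 7196 below), but with upper-quartile scaling the median was 0.00 and 43 estimates lay above 0. With the length and GC correction 10 estimates lay above 0. Single mice moved the tally as well, to 41 above 0 without young replicate 1, 37 without old replicate 4, 15 without old replicate 5 and 13 without old replicate 3. The sign of the estimates depended on the scaling and on single mice. The median of all tested genes moved with the scaling as well. It was 0.00 in the main fit, 0.03 with upper-quartile scaling and -0.03 with the length and GC correction. The member medians in these fits were -0.02, 0.00 and -0.06, each below that of all tested genes. Without young replicate 1 the median was 0.00 in the members and 0.01 in all tested genes. Without young replicate 1 and old replicate 2 it was 0.02 and 0.00. The library medians of the members had an SD of 0.07 on the log2 scale. This is the spread of single mice and not the error of a difference between group means.

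Complex I, the NADH dehydrogenase, had 37 tested members with a median log2 difference of -0.02, 10 above and 27 below 0, but 19 above and 18 below with upper-quartile scaling and 3 above and 34 below with the length and GC correction. Left-out mice gave from 4 above (without old replicate 3, median -0.06) to 17 above (without young replicate 1, median -0.01). Its core subunits showed small differences. Ndufv1, which binds NADH and the flavin, had 1677 ± 128 normalized counts in the young mice and 1747 ± 63.1 in the old mice (mean ± SD, n = 5 each), a log2 difference of 0.07 (95% interval -0.06 to 0.20). Ndufs1, the largest iron-sulfur subunit, had 1575 ± 55.5 and 1529 ± 61.4. The core subunits Ndufv2, Ndufs3 and Ndufs8 had log2 differences of 0.01, 0.01 and 0.02, and that of Ndufs7 was less than 0.01 in size. The Ndufs3 estimate is uncertain, as 39.7% of its 50-base windows also occur in transcripts of other genes. Ndufa4 had the highest level per length among the members placed here, at 5583 normalized counts per kb in the young mice and 5057 in the old mice. It carries a complex I name, but its protein is held to be a subunit of complex IV. Its log2 difference was -0.13, and -0.09 without old replicate 2.

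The smallest p in complex I was that of Ndufv3, an accessory subunit of the NADH-binding arm (chr17:31520115-31531331). Its normalized counts were 2722, 2197, 2259, 2038 and 1948 in the young mice and 1840, 1795, 2121, 1743 and 1933 in the old mice. Young replicate 1 was the highest of all 10 and the groups overlapped. The log2 difference was -0.24 (SE 0.09, 95% interval -0.42 to -0.05), with an edgeR adjusted p of 0.103. With a correction for gene length and GC content, Ndufv3 was called lower in old aortae (log2 difference -0.29, adjusted p = 0.0225), and over all alternative settings the adjusted p ranged from 0.0225 to 0.235. Without young replicate 1 the log2 difference of Ndufv3 was -0.16. The accessory subunits Ndufc1 (-0.18, adjusted p = 0.124) and Ndufb2 (-0.17, adjusted p = 0.143) were also below 0 and, like Cox6b2 and Atp5g3 described further on, had an unadjusted edgeR p below 0.05. Ndufc1 and Ndufb2 were singled out after their values were seen. Without old replicate 3, Ndufc1 was called lower, at -0.23 with an adjusted p of 0.0392 in edgeR.

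Complex II, succinate dehydrogenase, is the only complex made wholly of nuclear-encoded subunits and also works in the tricarboxylic acid cycle. All 4 genes were tested and 0 were called by edgeR, DESeq2 or limma-voom, with 0 at an unadjusted p below 0.05 in edgeR. The 4 estimates lay below 0, but 3 of them lay above 0 with upper-quartile scaling and without young replicate 1. The flavoprotein Sdha, the most abundant per length, had 4566 ± 308 normalized counts in the young mice and 4487 ± 163 in the old mice, and the log2 difference was -0.02 (95% interval -0.14 to 0.11). The iron-sulfur subunit Sdhb and the membrane anchor Sdhd differed by -0.03 and by less than 0.01 in size. The other anchor, Sdhc, had the smallest p of the complex, with a log2 difference of -0.11 (adjusted p = 0.245, edgeR), and -0.07 without old replicate 2.

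Complex III, the cytochrome bc1 complex, had 8 tested members, and all 8 estimates lay below 0 at log2 differences between -0.11 (Uqcr11) and -0.02 (Uqcrc2), with a median of -0.06, but with upper-quartile scaling or library size alone 2 of the 8 lay above 0. Without young replicate 1, 3 of the 8 lay above 0 and the median was -0.02, and without old replicate 4, 1 lay above 0. None was called by edgeR, DESeq2 or limma-voom, 0 had an unadjusted p below 0.05 in edgeR, and the smallest adjusted p was 0.463. Without young replicate 1, Uqcr11 stood at -0.05. The hinge protein Uqcrh had the highest level per length, 6263 normalized counts per kb in the young mice and 6136 in the old mice. The Rieske iron-sulfur protein Uqcrfs1 had 1089 ± 48.8 normalized counts in the young mice and 1039 ± 43.2 in the old mice, and the core proteins Uqcrc1 and Uqcrc2 differed by -0.04 and -0.02 on the log2 scale. Cyc1, the cytochrome c1 subunit, lies outside the symbol rule and differed by -0.06 (adjusted p = 0.705, edgeR). Cycs, the mobile carrier cytochrome c, had 480 ± 21.3 normalized counts in the young mice and 427 ± 42.4 in the old mice (log2 difference -0.16, adjusted p = 0.193, edgeR).

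Complex V, ATP synthase, had 17 tested members with a median log2 difference of -0.01, 7 above and 10 below 0, but 10 above and 7 below with upper-quartile scaling and 2 above and 15 below with the length and GC correction. Left-out mice gave from 2 above (without old replicate 3, median -0.04) to 9 above (without young replicate 1 or old replicate 4, with medians of 0.00). The catalytic beta subunit Atp5b had 12407 ± 779 normalized counts in the young mice and 12390 ± 428 in the old mice, a log2 difference of 0.01 (95% interval -0.12 to 0.13). The alpha subunit Atp5a1 and the central-stalk subunit Atp5c1 differed by 0.02 and -0.03. Atp5l had under 100 normalized counts in the mean of either group and shares 84.8% of its windows with other genes, so that its value is uncertain.

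Atp5g1, Atp5g2 and Atp5g3 encode the same mature subunit c of the rotor ring with different import sequences. Atp5g3, the most abundant per length, had 2561, 2608, 2679, 2683 and 2662 normalized counts in the young mice and 2294, 2234, 2639, 2415 and 2459 in the old mice. Old replicate 3 lay among the young mice and the other 4 old mice lay below them. The log2 difference was -0.12 (95% interval -0.24 to -0.01) with an adjusted p of 0.164 in edgeR. Of the summed level per length of the 3 genes, Atp5g3 held 76.4% to 77.3% in the young mice and 74.1% to 76.3% in the old mice, so that these shares did not overlap between the groups. This share was looked at after the values were seen and its difference was not tested. Atp5g1 held 7.28% ± 0.337 in the young mice and 8.04% ± 0.384 in the old mice (mean ± SD, n = 5 each), and Atp5g2 held 15.9% ± 0.423 and 16.9% ± 1.27. All these shares rest on the transcript lengths used, 2676 bases for Atp5g1, 586 for Atp5g2 and 718 for Atp5g3. Without division by length the order of Atp5g1 and Atp5g2 was the reverse. Atp5g1 had 932 ± 53.5 normalized counts in the young mice and 962 ± 86.6 in the old mice, and Atp5g2 had 445 ± 12.4 and 442 ± 26.9. Atp5g2 is uncertain, as 87.4% of its windows occur in other transcripts.

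Complex IV, cytochrome c oxidase, had 15 tested members with a median log2 difference of -0.02, 6 above and 9 below 0, but 9 above and 6 below with upper-quartile scaling. Left-out mice gave from 5 above (without old replicate 5, median -0.05) to 10 above (without old replicate 4, median 0.03), and 9 above without young replicate 1. Several of its subunits exist as a widely expressed form and a form restricted to certain tissues or conditions. The widely expressed forms showed small differences. Cox4i1 had the highest level per length, 6585 normalized counts per kb in the young mice and 6342 in the old mice, with a log2 difference of -0.05 (95% interval -0.17 to 0.08). Cox6a1, Cox6b1, Cox7a2, Cox7b and Cox8a differed by -0.07, -0.02, -0.01, -0.02 and 0.03, and the supercomplex factor Cox7a2l by 0.03. The muscle form Cox6a2 had 16 counts over the young and 12 over the old libraries and was not tested, and Cox7b2 and Cox8c had 0 counts.

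Cox6b2, a form best known from testis (chr7:4751792-4753094), had the smallest p of all members. It had 69.5, 70.4, 65.8, 68.6 and 74.8 normalized counts in the young mice and 85.9, 110, 86.7, 71.3 and 123 in the old mice. All old mice but replicate 4 lay above all young mice, so that the groups overlapped by 1 mouse. The log2 difference was 0.46 (SE 0.16, 95% interval 0.12 to 0.80) with an adjusted p of 0.0793 in edgeR. Without old replicate 4 the gene was called, at 0.55 with an adjusted p of 0.0410, and over all alternative settings the adjusted p ranged from 0.0410 to 0.195. Cox6b2 made up 3.24% ± 0.335 of the summed level per length of Cox6b1 and Cox6b2 in the young mice and 4.45% ± 0.938 in the old mice.

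Cox4i2 and Ndufa4l2 are forms known to be induced by low oxygen. Cox4i2 had 64.8 ± 16.7 normalized counts in the young mice and 52.6 ± 16.3 in the old mice (log2 difference -0.29, 95% interval -0.80 to 0.21). Ndufa4l2 had 349 ± 28.8 and 311 ± 60.6 (log2 difference -0.16, 95% interval -0.42 to 0.11). Single libraries moved both values: Cox4i2 stood at -0.17 without young replicate 2 and at -0.49 without old replicate 3. Ndufa4l2 ranged from -0.08 without old replicate 2 to -0.24 without old replicate 5.

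Cox8b and Cox7a1, the forms of heart, skeletal muscle and brown fat, had the widest spread between mice of the tested members. Cox8b (chr7:140898945-140900446) had 476, 81.5, 68.8, 114 and 97.3 normalized counts in the young mice and 93.9, 301, 120, 116 and 182 in the old mice. Young replicate 1 and old replicate 2 were high and the groups overlapped widely (log2 difference -0.04, 95% interval -1.37 to 1.29). Cox7a1 (chr7:30184144-30186078) had 81.8, 15.1, 23.9, 18.3 and 31.8 in the young mice and 27.0, 59.9, 49.4, 35.7 and 62.2 in the old mice. Here too young replicate 1 was the highest of the 10. The log2 difference of Cox7a1 was 0.46 with an adjusted p of 0.538 in edgeR. Without young replicate 1, Cox7a1 was called higher in old aortae (1.08, adjusted p = 0.0302) and Cox8b stood at 0.85 with an adjusted p of 0.120. Cox7a1 stood at 0.27 without young replicate 2 and at 0.30 without young replicate 4, and Cox8b at -0.39 without old replicate 2. The fit without both young replicate 1 and old replicate 2 was chosen after the values were seen. In that fit Cox7a1 stood at 0.97 (adjusted p = 0.0573, edgeR) and Cox8b at 0.51 (adjusted p = 0.138, edgeR). Over all alternative settings the adjusted p of Cox7a1 ranged from 0.0302 to 0.762. Per length, Cox8b made up 24.3% of the sum of Cox8a and Cox8b in young replicate 1 and 18.1% in old replicate 2, but 5.53% to 11.2% in the other 8 libraries.

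Some fat cell genes, but not all, were high in the same libraries. Ucp1, the uncoupling protein of brown fat, had 680, 28.2, 52.8, 135 and 327 normalized counts in the young mice and 60.0, 458, 166, 162 and 423 in the old mice. Cidea, a lipid droplet protein, had 968 in young replicate 1 and 196 to 420 in the other 9 libraries. Without young replicate 1 the log2 difference of Cidea was -0.17, against -0.63 with all mice. Ucp1 and Cidea were singled out after their values were seen. The 8 white adipocyte markers summed to 42984, 13703, 14711, 23048 and 13169 in the young mice and to 7644, 17840, 12242, 10091 and 9711 in the old mice, with Cfd the most abundant and 0 of them at 0 counts. The 8 brown adipocyte markers, of which Cox8b itself is 1, summed to 5208, 3766, 2328, 4592 and 6160 in the young mice and to 2536, 4019, 2543, 2660 and 3273 in the old mice, with Dio2 the most abundant. Dio2 did not stand out in these libraries. It had 1945 normalized counts in young replicate 1, against 1350 to 2394 in the other young mice. In old replicate 2 it had 1316, against 1065 to 1408 in the other old mice. Of the tested markers, 0 of 8 white and 1 of 6 brown were called, namely Dio2, lower in old aortae (log2 difference -0.67, adjusted p = 0.0104, edgeR). Among the white adipocyte markers 6 had an unadjusted p below 0.05 in edgeR, and all 8 estimates were negative. The part of fat cells in the Cox8b and Cox7a1 values was not tested.

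**Figure D2:**
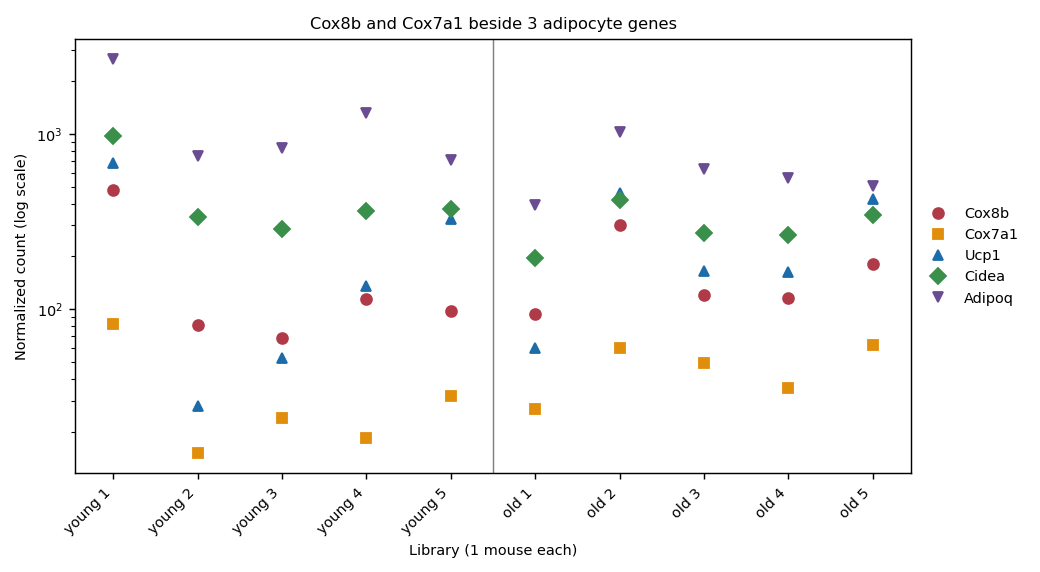
Normalized counts (log scale) of Cox8b, Cox7a1 and the adipocyte genes Ucp1, Cidea and Adipoq are plotted for each of the 10 libraries (x axis, 1 mouse each). Cox8b is highest in young replicate 1 (476) and old replicate 2 (301), the libraries in which Ucp1 is also highest (680 and 458). Ucp1 is also high in old replicate 5 (423) and young replicate 5 (327), where Cox8b is 182 and 97.3. Adipoq is higher in young replicate 4 (1314) than in old replicate 2 (1021).

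The members tended to move together from library to library. Relative to each gene's mean over the 10 libraries, 74 of 81 members were above their mean in young replicate 1, 73 in old replicate 3 and 67 in old replicate 5. In old replicates 1, 2 and 4 only 8, 13 and 9 members were above it. The median deviation was 0.12 in young replicate 1 and -0.09 in old replicates 2 and 4, on the log2 scale, and the other young mice lay between -0.02 and 0.02. After removal of the group means, the median pairwise Pearson r over the 10 mice was 0.54 among the members, 0.37 among 19 tricarboxylic acid cycle genes, 0.14 among 77 mitochondrial ribosomal protein genes, 0.82 among 79 cytosolic ribosomal protein genes and near 0 among all tested genes. These correlations are descriptions, since all genes share the same 10 libraries. By complex the median r was 0.68 for complex III, 0.56 for complex I, 0.52 for complex V, 0.51 for complex IV and 0.36 for complex II. Among members with a mean of at least 500 normalized counts, the median coefficient of variation was 5.52% in the young mice and 7.63% in the old mice, against 7.51% and 7.69% for all tested genes of that level.

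**Figure D3:**
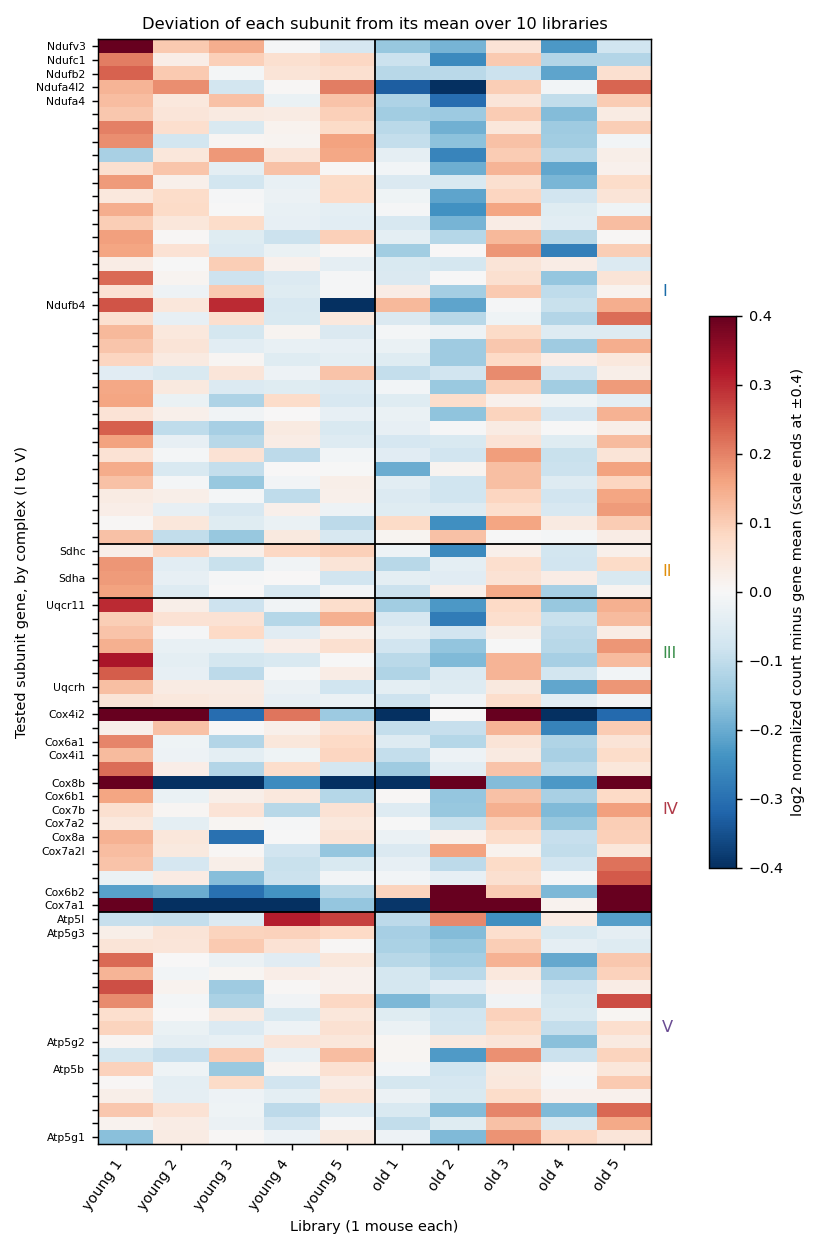
Each row is a tested subunit gene, grouped by complex and named as in the plot of differences, and each column a library; the colour gives the log2 normalized count minus the gene's mean over the 10 libraries. Most rows are above their mean in young replicate 1 and old replicates 3 and 5 and below it in old replicates 1, 2 and 4.

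The members' promoters were searched for short motifs of factors known to act on respiratory genes. RefSeq windows (GRCm38.p6) from 250 bases before to 50 after the start site were found for 67 of the 88 symbols, as 72 windows. The core of the NRF1 motif (GCATGCGC, either strand) occurred in 13.9% of these windows and in 2.71% of all 32851 windows. The ETS core bound by GABP (CCGGAAG) occurred in 23.6% against 8.86%, and the YY1 core (AAGATGGC) in 12.5% against 2.75%. The TATA box (TATAAA) occurred in 12.5% against 13.6% and the CCAAT box (CCAAT) in 43.1% against 37.4%. The median number of CG pairs per window was 19 in members and 7 in all windows. A match describes the letters only and is not evidence of binding, and its relation to the correlation among members was not tested. NRF1 and ETS cores were both present in the windows of Sdhb, Uqcr11, Cox6a1, Atp5k and Atp5l.

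The 100 bases before the start are shown for Uqcr11, whose full window holds both motifs, and for the complex IV pairs Cox6b1 and Cox6b2 and Cox8a and Cox8b, chosen to set a widely expressed form beside a restricted form of the same subunit. The start taken is the more upstream of the RefSeq start and the GENCODE M21 gene start, which lies 9 bases upstream of the RefSeq start in Uqcr11 and 37 in Cox6b1. Capitals mark any of the 5 motifs that lie wholly within the stretch, read 5′ to 3′ in the direction of the gene.
Uqcr11, chr10:80406831-80406930, minus strand: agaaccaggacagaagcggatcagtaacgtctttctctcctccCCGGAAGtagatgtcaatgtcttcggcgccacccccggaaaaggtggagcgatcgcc
Cox6b1, chr7:30626152-30626251, minus strand: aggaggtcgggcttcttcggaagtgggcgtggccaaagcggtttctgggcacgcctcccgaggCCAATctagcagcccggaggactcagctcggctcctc
Cox6b2, chr7:4753095-4753194, minus strand: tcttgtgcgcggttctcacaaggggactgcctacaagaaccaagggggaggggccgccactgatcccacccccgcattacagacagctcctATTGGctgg
Cox8a, chr19:7217617-7217716, minus strand: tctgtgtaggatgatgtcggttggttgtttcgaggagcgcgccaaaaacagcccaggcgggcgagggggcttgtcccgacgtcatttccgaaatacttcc
Cox8b, chr7:140900447-140900546, minus strand: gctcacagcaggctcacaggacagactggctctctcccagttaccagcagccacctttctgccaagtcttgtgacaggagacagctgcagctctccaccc
In these stretches the widely expressed forms Cox6b1 and Cox8a held 8 and 9 CG pairs, the restricted Cox6b2 held 4 and Cox8b held 0.

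Summed over all 88 members, the subunit genes took 0.746%, 0.650%, 0.654%, 0.650% and 0.659% of the counts in the young libraries and 0.639%, 0.636%, 0.715%, 0.644% and 0.718% in the old libraries. Young replicate 1 was the highest and old replicate 2 the lowest, and the groups overlapped. The group means were 0.672% ± 0.0414 and 0.671% ± 0.0422 (SD, n = 5 each). The counted genes of the mitochondrial genome, among which 6 of 13 protein genes had 0 to 20 counts over all libraries, together took 6.17%, 4.63%, 6.22%, 4.80% and 4.50% of the counts in the young libraries and 6.51%, 11.0%, 5.19%, 5.49% and 5.55% in the old libraries. Old replicate 2 stood apart from the other 9. The mean share was 5.26% ± 0.855 in the young mice and 6.75% ± 2.43 in the old mice (SD, n = 5 each), with an exact two-sided permutation p of 0.206. The mean difference was 1.48 percentage points with all mice and 0.421 without old replicate 2 (exact permutation p = 0.413).

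**Figure D4:**
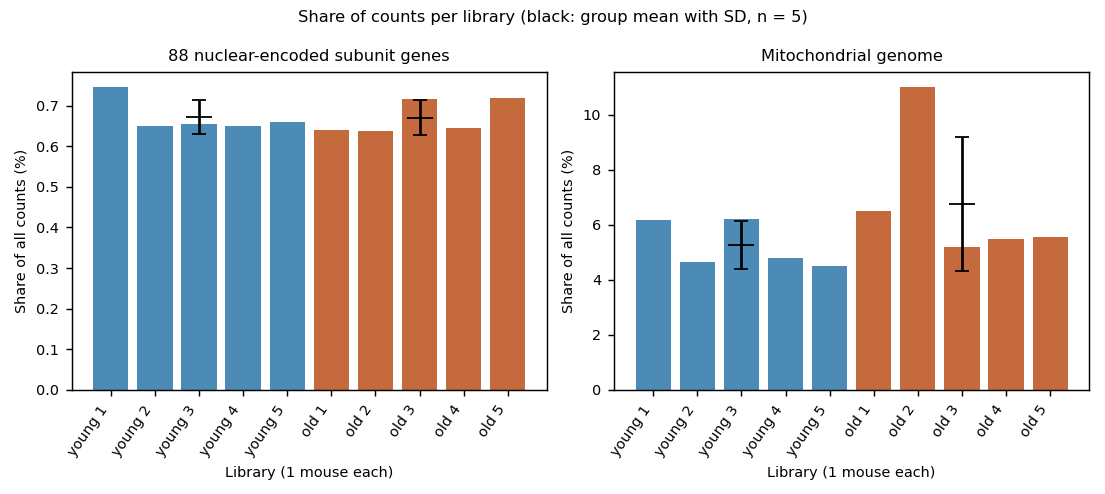
The bars give the share of all counts in each library (y axis, percent) that fell on the 88 nuclear-encoded subunit genes (left) and on the counted genes of the mitochondrial genome (right), in blue for young and orange for old mice, with the group mean and SD in black. The nuclear share stays between 0.636% and 0.746%, and the mitochondrial share reaches 11.0% in old replicate 2.

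The mitochondrial protein genes encode the partner subunits of complexes I, III, IV and V. Of the 13, 7 were tested and 0 called, with a median log2 difference of 0.33 and 0 at an unadjusted p below 0.05 in edgeR. The most abundant, mt-Co1 of complex IV, differed by 0.35 (95% interval -0.10 to 0.80, adjusted p = 0.314, edgeR). The log2 differences of mt-Nd1, mt-Nd2, mt-Nd4, mt-Nd5 and mt-Cytb were 0.29, 0.34, 0.33, 0.37 and 0.33, and that of mt-Nd6 was -0.06 with a wide 95% interval of -1.48 to 1.37. Without old replicate 2, the values of the first 5 and of mt-Co1 lay between 0.05 and 0.11. The value of mt-Nd6 ranged from -0.59 without old replicate 2 to 0.24 without young replicate 3. The remaining 6 could not be compared, since mt-Nd4l, mt-Atp6 and mt-Atp8 had 0 counts and mt-Co3, mt-Nd3 and mt-Co2 had 3, 5 and 20 over all libraries.

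The wider respiratory programme was followed in lists of related genes. Assembly factors, which build the complexes without staying in them, had 0 of 51 called by edgeR (median log2 difference 0.01) and 6 at an unadjusted p below 0.05. Of 7 subunits and carriers outside the symbol rule, only Etfdh was called, lower in old aortae at -0.17 (adjusted p = 0.0449, edgeR). It passes electrons from fatty acid oxidation to ubiquinone. With any 1 of the 10 mice left out Etfdh was no longer called (adjusted p of 0.0525 to 0.0890, log2 difference -0.19 to -0.15). Of 19 regulators of mitochondrial biogenesis, Esrra was called higher, and 6 had an unadjusted p below 0.05. This nuclear receptor, a known regulator of respiratory genes, had 439 ± 31.0 normalized counts in the young mice and 558 ± 34.3 in the old mice, and all 5 old mice lay above all 5 young mice (log2 difference 0.35, adjusted p = 0.00571, edgeR). The coactivator Ppargc1a, the mitochondrial DNA factor Tfam and the transcription factors Nrf1 and Gabpa differed by -0.09, 0.06, -0.08 and by less than 0.01 in size and were not called. Over all alternative settings Ppargc1a ranged from -0.23 to 0.01 and Tfam from 0.03 to 0.09. Nrf1 ranged from -0.13 to -0.04 and Gabpa from -0.04 to 0.02. The tricarboxylic acid cycle (19 genes), fusion, fission and mitophagy (16) and protein import (25) had 0 called by edgeR, with 3, 2 and 1 genes at an unadjusted p below 0.05.

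Mitochondrial chaperones and proteases had 8 of 15 at an unadjusted p below 0.05 (26.7% of all tested genes had such a p) and 2 called, both lower: Hspd1 and Hspe1, which form the folding chamber of the matrix. Hspe1 fell by 0.44 on the log2 scale (adjusted p = 0.0324, edgeR). The call of Hspe1 was lost without young replicate 2, 4 or 5 or old replicate 2, 3, 4 or 5 (adjusted p of 0.0517 to 0.0845, log2 difference -0.45 to -0.37). Of 9 carriers, the uncoupling protein Ucp2 rose by 0.78 (adjusted p = 0.0114). Mitochondrial ribosomal proteins had 1 of 77 called, Mrpl32 at -0.27 (adjusted p = 0.0434), and cytosolic ribosomal proteins 0 of 79, with 1 at an unadjusted p below 0.05 in edgeR. The call of Mrpl32 was lost without young replicate 2, 3, 4 or 5 or old replicate 2, 3 or 4 (adjusted p of 0.0666 to 0.111, log2 difference -0.28 to -0.24). Glycolysis had 10 of 19 at an unadjusted p below 0.05 and 2 called, both higher, among them Gpi1 at 0.27 (adjusted p = 0.00654). Of 17 tested targets of hypoxia-inducible factors, 7 had an unadjusted p below 0.05, and Ndrg1 and Mif were called higher and Vegfa lower, with Mif at 0.36 (adjusted p = 0.00553) and Vegfa at -0.45 (adjusted p = 0.0133).

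**Figure D5:**
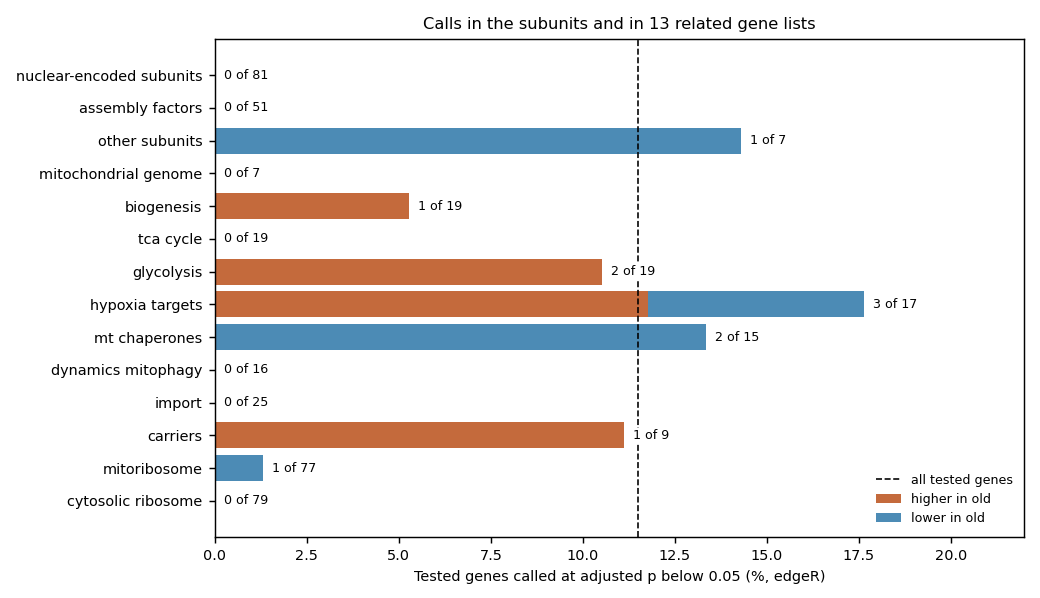
Bars give the percentage of tested genes called at an adjusted p below 0.05 (edgeR) in the subunit genes and in 13 related lists, orange for higher and blue for lower in old aortae, with counts beside them; the dashed line marks the 11.5% of all tested genes. The subunits, the assembly factors and the cytosolic ribosomal proteins have 0 called of 81, 51 and 79.

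Among the cell type lists, macrophage markers had the most calls, and each of the others had 0 to 3. Of 8 macrophage markers 5 were called, all higher in old aortae, and 7 had an unadjusted p below 0.05, with summed levels of 5928 ± 620 normalized counts in the young mice and 8699 ± 2522 in the old mice and Csf1r the most abundant. Old replicate 3 stood apart with a summed level of 13108, against 6956 to 8314 in the other old mice and 5353 to 6883 in the young mice. Of 8 endothelial markers, Tek was called lower (log2 difference -0.87, adjusted p = 0.0381, edgeR), 6 had an unadjusted p below 0.05, and the summed level was 25856 ± 6326 in the young mice and 15478 ± 5402 in the old mice, with Pecam1 the most abundant. Smooth muscle markers had 1 of 8 called, Smtn, higher at 0.29 (adjusted p = 0.0217). Their median log2 difference was -0.11 with 3 of 8 above 0, and their summed level was 916288 ± 66623 in the young mice and 865058 ± 63277 in the old mice. The call of Tek was lost without young replicate 1, 3 or 5 or old replicate 1, 3 or 5 (adjusted p of 0.0582 to 0.0859, log2 difference -0.91 to -0.72), and that of Smtn without young replicate 3 or 5 or old replicate 5 (0.0551 to 0.0610, log2 difference 0.25 to 0.26). Over all alternative settings the adjusted p reached 0.178 for Tek and 0.104 for Smtn. Fibroblast markers had 1 of 8 higher (Lum, 0.58) and 2 lower, among them Col1a1 at -0.91. The T and B lymphocyte list had Cd3g higher among 4 tested, and the Schwann cell list had Prx higher and Pmp22 lower among 6. The call of Prx was lost without young replicate 2, 4 or 5 or old replicate 3 or 5 (adjusted p of 0.0523 to 0.0636, log2 difference 0.31 to 0.38). The cardiomyocyte list had Tnnt2 and Ryr2 higher and Actc1 lower among 5 tested, though Actc1 was not called without the low-count filter (adjusted p = 0.06, log2 difference -2.02). Pericyte (7 tested), skeletal muscle (5) and erythroid (5) markers had 0 called by edgeR, with 1, 0 and 0 at an unadjusted p below 0.05. The part of these values in the subunit values was not tested.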

How the data were processed

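RNA from 10 aortae was made into stranded poly(A) libraries. Per the labels and the study's methods, the authors trimmed reads with fastp 0.20.0, aligned them to GRCm38 with STAR 2.7.0f and counted them per gene with featureCounts of Subread 1.6.4; the deposited values are whole, unscaled counts. The strand setting and the treatment of reads with several alignments are not given in the sources used here, so genes sharing sequence are uncertain.

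Counts were filtered (filterByExpr, 14614 of 28011 genes kept), TMM-scaled and compared by the quasi-likelihood F test of edgeR 4.0.16 (robust, no covariates) in R 4.3.3, with Benjamini-Hochberg adjustment over all tested genes. The alternatives were DESeq2 1.42.0, limma-voom 3.58.1 with and without sample weights, other scalings and filters, a threshold of 0.01, a length and GC correction, the replicate block and each mouse left out. DESeq2 on every symbol with a count, and the fit without young replicate 1 and old replicate 2, were added after seeing the data. Intervals are 95% Wald intervals of that fit. Normalized counts are counts over DESeq2 size factors. Levels per length use GENCODE M21 principal transcripts; the authors' M22 was not used here. The tests were tested on simulated data, where DESeq2 called more unchanged genes than its threshold implies. Of 55453 symbols, 54471 matched 1 annotated gene, 115 matched several and 867 none.

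Named genes were the called members, per complex the most abundant per length and the smallest p, isoform and catalytic subunits, regulators, mitochondrial protein genes, and the leading called gene of each list in each direction. The members and lists were chosen with earlier results of these data known.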

Additional observations from a re-analysis of the deposited data

Results flagged for a closer look

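In 148 groups of 5 mice, the highest and the lowest value were compared with the rest. A value was listed where its gap to the nearest other mouse was over 0.71 of the range, which chance gives in about 1 in 20 groups. There were 19 such values.

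In young replicate 1, the normalized counts of Cox8b (476.4), Cox7a1 (81.8), Sdhd (1671), and the fat cell gene Cidea (968) stood above the other young mice, as did the share of counts on the 88 subunit genes (0.746%, against 0.650% to 0.659%). In old replicate 2, mt-Nd1 (247292), mt-Nd2 (187244), mt-Nd4 (242492), mt-Nd5 (231977), mt-Cytb (570039), mt-Co1 (812272), the share of counts on the mitochondrial genome (11.0%) and Ndufv1 (1856) stood above the other old mice. Ndufv1 was 1702 to 1745 in those mice. Atp5g2 was low in old replicate 4 (394). Cycs was high in young replicate 5 (517).

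Outside the respiratory chain, Col1a1 was low in young replicate 3 (44381), Prx was low in young replicate 4 (360), and Fcgr1 (130) and Tnnt2 (1545) were high in old replicate 3. What sets these libraries apart was not tested.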

How the results depend on the processing

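In 18 of 22 alternative fits 0 members were called. The number of members called higher ranged from 0 to 1 when single mice were left out (Cox7a1 without young replicate 1, Cox6b2 without old replicate 4), and so did the number called lower (Ndufc1 without old replicate 3). The length and GC correction called 1 member lower, Ndufv3. The median log2 difference of the members ranged from -0.06 to 0.02 and changed sign with upper-quartile scaling, without young replicate 1, and without young replicate 1 and old replicate 2. That of all tested genes was 0.00 in the main fit, 0.03 with upper-quartile scaling and -0.03 with the length and GC correction.

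Over all tested genes, 1676 were called, 2643 with limma-voom sample quality weights, 2304 with DESeq2 and 658 at an adjusted p below 0.01; single mice left out gave 1132 to 2367. The mice of both ages are separate animals that share replicate numbers only, so the main fit did not pair them. The correlations of same-numbered mice were -0.29, -0.07, 0.10, -0.05 and 0.13, against -0.19 to 0.24 for differently numbered mice. With the replicate block 1261 genes and 0 members were called (3 members at an unadjusted p below 0.05). The cause of these changes was not tested. The mitochondrial share difference ranged from 0.421 to 1.87 percentage points with single mice left out.

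Of 1584 comparisons of a named gene with an alternative fit, 1524 kept their side of the threshold, 56 lost a call, 4 gained one, and 106 of the uncalled changed sign.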

Other observations

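Cox6a2, the heart and skeletal muscle form of a complex IV subunit, had 7.04 normalized counts in young replicate 2 and 6.15 in young replicate 5, and 0.966 to 2.92 in the other 8 libraries. The cardiac myosin gene Myh6 had 161 and 77.9 in the same 2 libraries and 1.09 to 6.76 elsewhere. The skeletal muscle marker list summed to 1177 in young replicate 2 and to 191 to 303 in the other 9 libraries, with 261 in young replicate 5. The cardiomyocyte marker list, which includes Myh6, summed to 3445 and 2998 in these 2 libraries, against 2529 to 3227 in the other young mice and 3380 to 4434 in the old mice. Its most abundant gene is Ryr2, and a sum of this size says little about Myh6. The part of muscle tissue in the Cox6a2 counts was not tested.

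The ATP synthase gene Atp5l aside, which shares most of its sequence with other genes, Ndufs1 had the lowest median correlation with the other members (r = 0.08) and Atp5j2 the highest (r = 0.74), over 10 mice with group means removed.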
